A study of Aspergillus cristatus with 9 samples.

Results

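The genes described here were 39 glycoside hydrolase genes of the golden flower fungus *Aspergillus cristatus*, of 10227 genes in the authors' table. They were chosen by annotation and not by expression. In the table, 123 genes had either the GO term for hydrolysis of O-glycosyl compounds or an EC number of the glycosidase class. Of these, 84 were left out because KEGG placed them in starch and sucrose metabolism, amino sugar and nucleotide sugar metabolism, N-glycan synthesis or protein processing in the endoplasmic reticulum, and the 39 are what remained. RNA of the fungus (strain JLU) was sequenced in 9 libraries, 3 from fungus collected from *Panax ginseng* roots (EcRS), 3 from fungus on *Panax notoginseng* roots (EcSQ) and 3 from fungus that had met no root (EcCK). All the fungus was first grown for 10 days on potato dextrose agar, and the EcRS and EcSQ fungus then spent 1 week at 28 °C on pieces of sterilized root. The study's methods say that spores collected from such plates were put on the ginseng roots. The root fungus was thus a new culture and not the plate fungus grown on. Root contact, the change of medium and the age and stage of the culture therefore cannot be told apart in these groups. The labels call all 9 libraries mycelium, whereas the study's methods call the EcCK material spores taken from plates. Those methods describe the ginseng roots as sterilized, whereas the study's results speak of fresh ginseng roots. Whether replicate libraries stem from separate cultures is not stated, so that p-values measure only the spread between these libraries, which may be technical.

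Glycoside hydrolases cut the bond between a sugar and its neighbour in a chain, or between a sugar and another molecule. Fungi secrete many of them to take apart plant pectin, hemicellulose and storage sugars. These are often exo-acting enzymes (galactosidases, mannosidases) that trim the side chains and endo-acting enzymes (polygalacturonases, arabinanases) that cut within a chain. Others stay in the fungus's own wall, where they remodel chitin and glucan as hyphae grow, and glycosidases that remove sugars from saponins belong to the same broad class.

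The annotation of the 39 genes was uneven. The glycosidase GO term alone brought in 18, an EC number alone 19, and 2 had both. A glycosidase activity stood among the GO terms of 26 genes and was missing in 13. All 8 genes with the EC number of alpha-L-fucosidase carried GO terms for FAD binding and oxidation-reduction in place of a glycosidase, and *SI65_00490* and *SI65_02274*, both with the EC number of beta-galactosidase, carried GO terms for hydrolases of linear amidines. *SI65_04288* had the glycosidase GO term but the EC number of a nicotinate metabolism enzyme. The table described 33 of the genes as hypothetical protein and gave a name to 6. Grouped by EC and GO terms, 2 genes fell to pectin, 8 to galactosides, 10 to mannose- and fucose-bearing glycans, 4 to the fungal wall or cell surface and 15 to all others. The genes lay on 17 of the 54 contigs in the table, had 1 to 7 exons and coding lengths of 318 to 3261 bases (median 1317).

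Levels are given as FPKM, a fragment count divided by transcript length and by library size. Estimated counts in listed genes ran from 45891944 to 52617713 in EcRS, from 53961809 to 55542113 in EcSQ and from 56398194 to 61627866 in EcCK. Counted units outside the listed genes made up 23.1% to 26.9% of the total in EcRS, 12.1% to 14.9% in EcSQ and 12.1% to 14.1% in EcCK, and FPKM divides by that total. EcSQ replicate 3 stood apart from its group. Across the genes of the table, its log2(FPKM + 1) correlated at 0.93 to 0.94 with the EcRS libraries, at 0.80 and 0.87 with the other EcSQ libraries, and at 0.69 to 0.75 with EcCK. The counts of called genes in comparisons with EcSQ, and the log2 fold changes given in full, are therefore given with and without this library.

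The 39 genes spread widely in level. In EcRS the mean was at least 100 FPKM in 3 genes and below 1 FPKM in 9, in EcSQ in 5 and 4, and in EcCK in 3 and 7. The median of the gene means was 5.499 FPKM in EcRS, 14.5 FPKM in EcSQ and 11.1 FPKM in EcCK, beside 5.99, 14.5 and 16.0 FPKM over all genes of the table. The highest genes changed with the group. *SI65_08277* and *SI65_07090*, both with fungal wall terms, led in EcRS with 732 ± 13.5 and 472 ± 103 FPKM (SD, n = 3), and in EcSQ with 363 ± 286 and 434 ± 464 FPKM. In EcCK the leading gene was *SI65_02293* with 145 ± 47.5 FPKM, a gene with the glycosidase GO term and no named substrate. *SI65_07347*, of the same kind of annotation, was among the highest in every group, with 162.7 ± 17.5 FPKM in EcRS, 130.7 ± 46.8 FPKM in EcSQ and 136 ± 21.7 FPKM in EcCK.

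**Figure D1:**
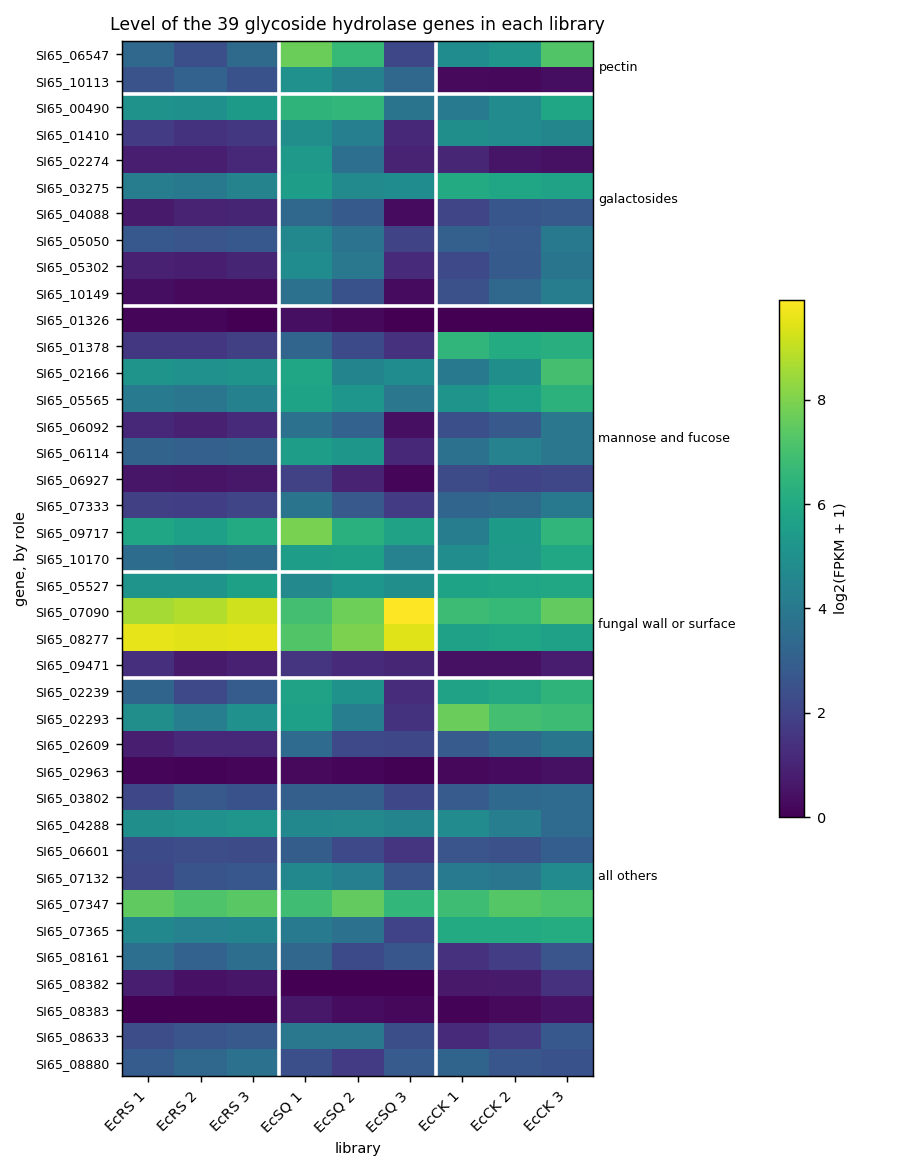
Each row is 1 of the 39 genes, grouped by role, and each column 1 library, with colour giving log2(FPKM + 1). *SI65_08277* and *SI65_07090* are brightest in the 3 EcRS libraries and in EcSQ replicate 3, while most galactoside genes are darker there than in EcSQ replicates 1 and 2.

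The first comparison, in which a lower level in bulk RNA cannot be told apart from fewer cells of a type, asked which of these genes differed between fungus on *P. ginseng* roots and fungus without roots. Of the 33 genes that reached a mean of 1 FPKM over the 6 libraries, 4 were up-regulated and 18 were down-regulated in EcRS, and 11 did not pass. Here and below, up- or down-regulated means an adjusted p no higher than 0.05 together with a change of 2-fold or more. The 4 up-regulated genes had roles in pectin (1), the fungal wall (2) and no named substrate (1), and 12 of the 18 down-regulated genes fell to galactosides or mannose- and fucose-bearing glycans. These 2 roles held 7 and 9 of the 33 tested genes. Of the 12, 5 carried FAD terms in place of a glycosidase, and 4 passed the filter on FPKM through EcCK alone. *SI65_06927* was in both sets. Over all 8925 genes tested, 12.8% were called up and 47.6% down, so the shares among the 33 genes, 12.1% and 54.5%, lie near the background. The libraries did not overlap in 27 of the 33 genes, with EcRS above EcCK in 5 and below it in 22, beside 18.3% and 54.3% of all genes tested. The median log2 fold change was -1.64 over the 33 genes and -0.96 over all genes tested, with 18 of the 33 below the median of all genes and 15 above it. Without the filter on FPKM the difference between the 2 medians shrank to -0.07.

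The scaling bears on these counts. TMM scaling, which takes most genes as unchanged, moved the median of all genes by 0.85 on the log2 scale, to -0.11. With it 9 of the 33 genes were up-regulated and 14 were down-regulated, beside 26.4% and 31.4% of all genes tested. The 4 up-regulated genes passed with both scalings, and of the 18 down-regulated genes *SI65_03275*, *SI65_05565*, *SI65_06114* and *SI65_07365* did not pass with TMM. A further 5 passed as up-regulated with TMM and not otherwise, namely *SI65_04288*, *SI65_07347*, *SI65_08633*, *SI65_08880* and *SI65_09717*. Of the 33 genes, 5 passed the filter through one group's level, *SI65_10113* through EcRS and *SI65_04088*, *SI65_05302*, *SI65_06927* and *SI65_10149* through EcCK, and a difference in these 5 was fixed by that.

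**Figure D2:**
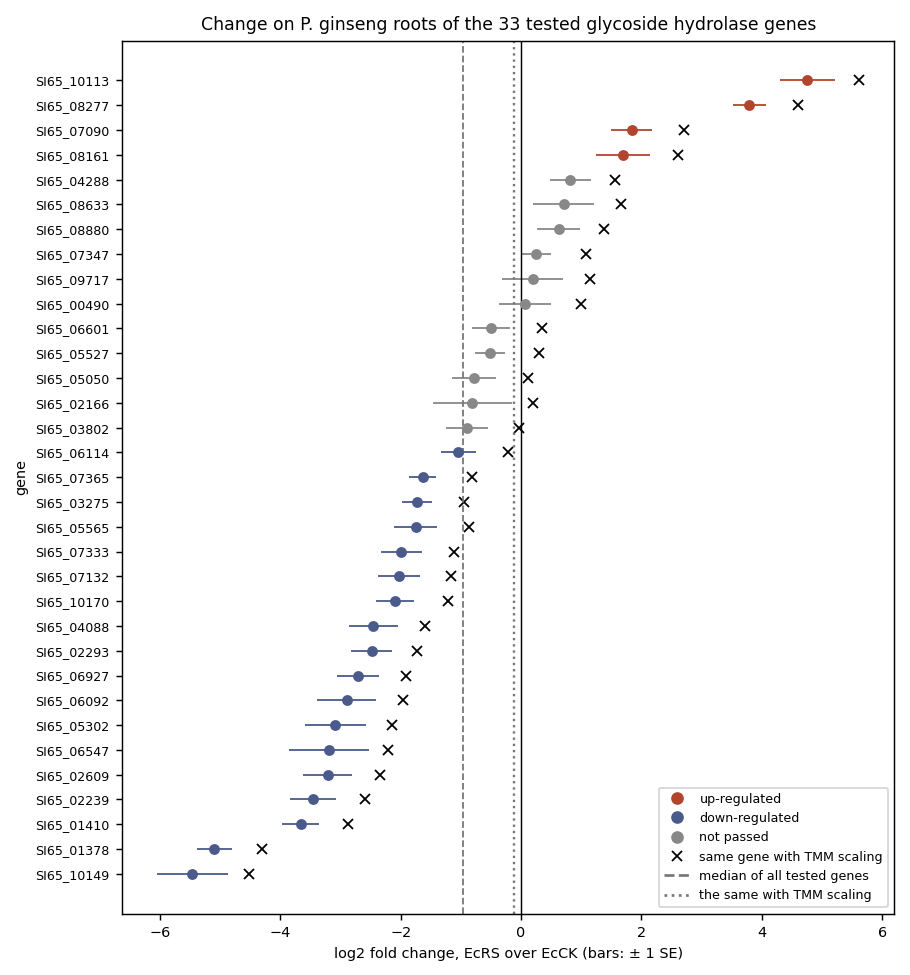
Points show the log2 fold change of EcRS over EcCK with 1 SE for each of the 33 tested genes, and crosses the same gene with TMM scaling. The points run from -5.46 for *SI65_10149* to 4.76 for *SI65_10113*, and the dashed line at -0.96 is the median of all genes tested.

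The 2 pectin genes moved in opposite directions. *SI65_10113* (contig 25, bases 115576 to 116682, minus strand, 1 exon) was described as Endopolygalacturonase I, an enzyme that cuts the galacturonic acid backbone of pectin. It had 4.85, 7.61 and 4.72 FPKM in EcRS, against 0.18, 0.15 and 0.28 FPKM in EcCK. Every EcRS library lay far above every EcCK library, and the level in EcRS stayed low beside the wall genes. The gene was up-regulated by 4.76 ± 0.46 on the log2 scale (SE, edgeR adjusted p = 4.06e-05), the largest rise among the 33 genes. However, the gene passed the filter on FPKM through EcRS alone, and a rise was fixed by that. *SI65_06547* had the same EC number, that of galacturan 1,4-alpha-galacturonidase, but its GO terms named the nucleus and cytosol and no activity. It had 8.90, 4.43 and 9.85 FPKM in EcRS, against 27.2, 35.5 and 149 FPKM in EcCK. The groups did not overlap, and EcCK replicate 3 was several times higher than the other EcCK libraries. Its log2 fold change was -3.19 ± 0.67 (edgeR adjusted p = 0.00265), and -2.02 without EcCK replicate 3 (edgeR adjusted p = 0.000278).

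Of the 8 galactoside genes, 7 were tested, 5 were down-regulated and none was up-regulated (0 also with TMM, 1 with DESeq2). Over all genes tested 47.6% were down-regulated and 12.8% up-regulated. Of the 5, *SI65_04088*, *SI65_05302* and *SI65_10149* passed the filter on FPKM through EcCK alone, and a fall was fixed by that. *SI65_10149*, described as alpha-galactosidase C (contig 26, bases 46834 to 49193), belongs to the enzymes that remove galactose side chains from galactomannan and raffinose-type sugars. It had 0.30, 0.18 and 0.20 FPKM in EcRS, against 4.47, 8.88 and 17.2 FPKM in EcCK. All EcRS libraries were below 1 FPKM, and the EcCK libraries spread widely among themselves. The log2 fold change was -5.46 ± 0.58 (edgeR adjusted p = 6.85e-05), the largest fall among the 33 genes, and -4.85 without EcCK replicate 3. *SI65_05302*, described as beta-galactosidase A, a type of enzyme that releases terminal beta-linked galactose, had 0.88, 0.77 and 1.06 FPKM in EcRS, against 3.56, 5.93 and 13.5 FPKM in EcCK. It fell by 3.08 ± 0.51 on the log2 scale (edgeR adjusted p = 0.000664), again with no overlap and with EcCK replicate 3 highest. Without that library its log2 fold change was -2.39.

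The other galactoside genes differed in how steady they were in EcCK. *SI65_01410*, with the EC number of alpha-galactosidase but GO terms of lipid storage in the endoplasmic reticulum, had 2.37, 1.7 and 2.07 FPKM in EcRS, against 29.4, 26.7 and 22.3 FPKM in EcCK. Both groups were tight, and the log2 fold change was -3.66 ± 0.31 (edgeR adjusted p = 2.4e-05). *SI65_03275*, a gene with EC and GO terms for beta-galactosidase and glycosidase, had 16.7, 15.2 and 20.7 FPKM in EcRS, against 65.3, 57 and 52.1 FPKM in EcCK, a log2 fold change of -1.73 ± 0.25 (edgeR adjusted p = 0.000296) that did not pass with TMM. The alpha-galactosidase gene *SI65_04088* was down-regulated as well, with 0.63, 0.94 and 1.03 FPKM in EcRS, against 3.15, 5.37 and 5.81 FPKM in EcCK, a log2 fold change of -2.45 (edgeR adjusted p = 0.000654). This call was lost with all 9 libraries in one fit (edgeR adjusted p = 0.063), and a fall was fixed by the filter, which *SI65_04088* passed through EcCK alone. The groups of all 3 genes kept apart. *SI65_05050* and *SI65_00490* did not pass. *SI65_00490* had 33, 30.5 and 41.4 FPKM in EcRS, inside the range of 15.9, 26.8 and 57.6 FPKM in EcCK, with a log2 fold change of 0.065 (edgeR adjusted p = 0.902). It passed as up-regulated with DESeq2 and with TMM and a replicate block, with log2 fold changes of 1.02 and 1.09 (adjusted p = 0.00808 in DESeq2 and 0.011 in edgeR).

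Of the 10 genes assigned to mannose- and fucose-bearing glycans, 9 were tested and 7 were down-regulated, beside 47.6% of all genes tested. Of these 7, 5 were the genes with the alpha-L-fucosidase EC number whose GO terms name FAD binding, a cofactor of oxidoreductases, so the group's name describes *SI65_06092* and *SI65_10170* better than the rest. *SI65_06092*, described as beta-mannosidase B, an enzyme type that finishes the breakdown of mannan, had 1.2, 0.88 and 1.2 FPKM in EcRS, against 4.34, 5.78 and 14.4 FPKM in EcCK. *SI65_10170*, with alpha-mannosidase and asexual sporulation among its GO terms, had 10.5, 8.67 and 10.4 FPKM in EcRS, against 27.7, 39.7 and 59 FPKM in EcCK. In both genes every EcRS library was below every EcCK library. The log2 fold changes were -2.89 ± 0.49 for *SI65_06092* and -2.09 ± 0.32 for *SI65_10170* (edgeR adjusted p = 0.000793 and 0.000425). Without EcCK replicate 3 that of *SI65_06092* was -2.20.

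Of the genes with FAD terms, *SI65_01378* (contig 1, bases 3719024 to 3720513) stood out. It had 2.08, 2.02 and 2.71 FPKM in EcRS, against 90.8, 67.2 and 75.7 FPKM in EcCK. Both groups were tight and far apart. The log2 fold change was -5.10 ± 0.29, with the smallest adjusted p of the 33 genes (edgeR, 1.09e-05). *SI65_06927* had 0.53, 0.45 and 0.56 FPKM in EcRS, against 3.87, 3.00 and 3.34 FPKM in EcCK, a log2 fold change of -2.71 ± 0.35 (edgeR adjusted p = 0.000181). It passed the filter on FPKM through EcCK alone, and a fall was fixed by that. *SI65_05565*, *SI65_06114* and *SI65_07333* were down-regulated too, with log2 fold changes of -1.75, -1.04 and -1.99. The *SI65_06114* call lay at the 2-fold limit and was lost without EcRS replicate 2 and without EcCK replicate 2. It was also lost with TMM, with DESeq2 (log2 fold change -0.19, DESeq2 adjusted p = 0.569) and with limma on log2(FPKM + 1). Further, it was lost with totals of listed genes as library size and with all 9 libraries in one fit (edgeR adjusted p = 0.347). *SI65_02166* and *SI65_09717* did not pass. *SI65_09717* had 57.4, 47.1 and 66.4 FPKM in EcRS, against 17.2, 41.8 and 90.7 FPKM in EcCK (log2 fold change 0.19 ± 0.51, edgeR adjusted p = 0.751). *SI65_02166* had 33.8, 31.0 and 34.0 FPKM in EcRS and spanned 15.2, 30.0 and 128 FPKM in EcCK, so its EcCK libraries enclosed the EcRS level. Single controls decided its direction, with a log2 fold change of -1.26 without EcCK replicate 1 (edgeR adjusted p = 0.0345) and of 0.54 without EcCK replicate 3.

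Of the 4 genes with wall or surface terms, 3 were tested and 2 were up-regulated, beside 12.8% of all genes tested. *SI65_08277* (contig 12, bases 260349 to 261586, minus strand, 3 exons) carried GO terms for the fungal wall and for IgE binding, a term given to fungal allergens. It had 745, 718 and 731 FPKM in EcRS, against 49.9, 58.1 and 50.1 FPKM in EcCK. The 3 libraries of each group lay close together and the groups were far apart. The log2 fold change was 3.79 ± 0.27 (edgeR adjusted p = 1.62e-05). *SI65_07090* (contig 8, bases 467928 to 469604), with terms for the hyphal wall and an anchor in the plasma membrane, had 388, 441 and 586 FPKM in EcRS, against 109, 99 and 187 FPKM in EcCK. It was up-regulated by 1.8 ± 0.34 on the log2 scale (edgeR adjusted p = 0.00131), with EcCK replicate 3 again the highest control. *SI65_05527*, described as glycosidase crf2 and with terms for chitin metabolism of the wall and for septa, did not follow them. Its level was 34.1, 34.3 and 49.2 FPKM in EcRS, against 52.8, 56.9 and 58.5 FPKM in EcCK, a log2 fold change of -0.52 ± 0.25 (edgeR adjusted p = 0.0898), and of 0.30 with TMM. The EcRS and EcCK libraries of this gene did not overlap, but the change did not reach the fold or the p required.

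Of the 15 remaining genes, 12 were tested, 1 was up-regulated and 5 were down-regulated, beside 12.8% and 47.6% of all genes tested. *SI65_08161* had 11.4, 7.72 and 11.0 FPKM in EcRS, against 1.66, 2.47 and 5.17 FPKM in EcCK. The groups did not overlap, and the log2 fold change was 1.69 ± 0.45 (edgeR adjusted p = 0.00901). *SI65_07365*, described as arabinan endo-1,5-alpha-L-arabinosidase D, an enzyme of the arabinan side chains of pectin, had 23.5, 20.3 and 21.2 FPKM in EcRS, against 66.7, 66.6 and 69.0 FPKM in EcCK. Its log2 fold change was -1.64 ± 0.22 (edgeR adjusted p = 0.000231), and -0.82 with TMM, where it did not pass. This pectin-related gene thus lay in the opposite direction to the polygalacturonase gene *SI65_10113*.

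The steeper falls in this group were in genes with no named substrate. *SI65_02239* had 8.24, 3.55 and 6.43 FPKM in EcRS, against 51.2, 61.7 and 87.3 FPKM in EcCK (log2 fold change -3.46 ± 0.38, edgeR adjusted p = 8.22e-05). *SI65_02609* had 0.79, 1.1 and 1.2 FPKM in EcRS, against 6.29, 9.49 and 13.6 FPKM in EcCK (log2 fold change -3.22 ± 0.41, edgeR adjusted p = 0.000175). Neither gene overlapped between the groups. *SI65_02293*, the highest of the 39 genes in EcCK, had 28.7, 17.8 and 31.2 FPKM in EcRS, against 199, 123 and 111.3 FPKM in EcCK. *SI65_07132* had 3.37, 5.02 and 5.54 FPKM in EcRS, against 16.2, 13.7 and 26.9 FPKM in EcCK. Both were down-regulated, with log2 fold changes of -2.48 and -2.03. The genes that did not pass ran from -0.89 in *SI65_03802*, which had an adjusted p of 0.0446 in edgeR but less than a 2-fold change, to 0.82 in *SI65_04288*. *SI65_07347*, with 179, 144 and 165 FPKM in EcRS, against 114, 158 and 138 FPKM in EcCK, overlapped between the groups (log2 fold change 0.25 ± 0.24, edgeR adjusted p = 0.37). Without EcCK replicate 1 *SI65_03802* and *SI65_04288* passed, with log2 fold changes of -1.08 and 1.19 (edgeR adjusted p = 0.0194 and 0.00796), and without EcCK replicate 3 *SI65_08633* passed, with 1.497 (edgeR adjusted p = 0.00217).

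**Figure D3:**
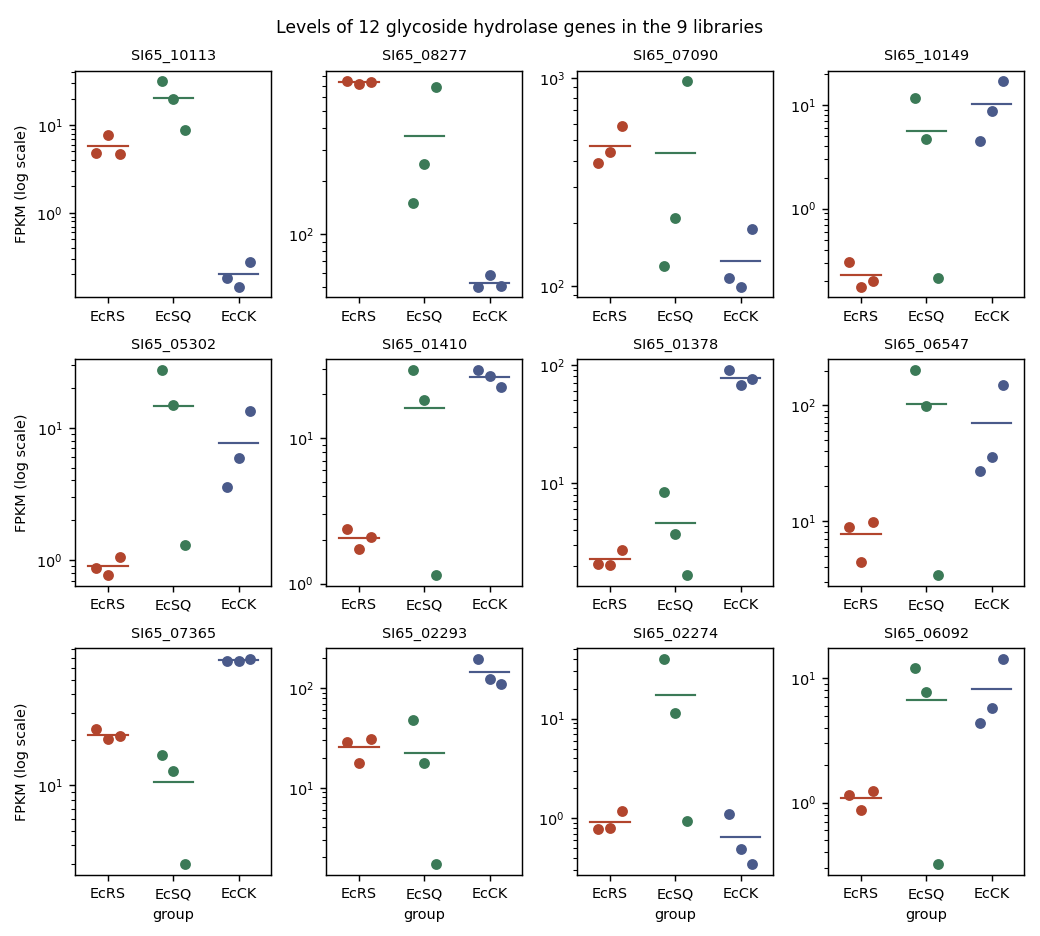
Each panel is 1 gene with its FPKM on a log scale in the 3 libraries of EcRS, EcSQ and EcCK (points in replicate order, line at the mean). In *SI65_10149*, *SI65_05302*, *SI65_01410*, *SI65_06547* and *SI65_06092* the third EcSQ point lies near or below the EcRS points, whereas in *SI65_10113* and *SI65_01378* all EcSQ libraries lie on the same side of EcCK as EcRS.

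The second comparison set fungus on *P. notoginseng* roots against the same EcCK libraries, so the 2 root comparisons share their controls. Of 34 genes tested, 2 were up-regulated and 1 was down-regulated in EcSQ, beside 3.59% called in either direction among all 9160 genes tested. An unadjusted edgeR p below 0.05 was reached by 8 of the 34, beside 1894 of all 9160 genes tested. The up-regulated genes were the polygalacturonase gene *SI65_10113* and the wall gene *SI65_08277*, and the down-regulated gene was *SI65_01378*, with the FAD terms. Without EcSQ replicate 2, EcCK replicate 1 or EcCK replicate 2 no gene of the 34 passed in edgeR, beside 0%, 0% and 0.0437% of all genes tested in those fits. Without EcCK replicate 3 *SI65_10113* alone passed, beside 1.66%. Without EcSQ replicate 3, 5 genes were up-regulated and 3 were down-regulated, the first 3 among them, beside 9.88% and 6.69% of all 9178 genes tested.

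*SI65_10113* had 31.7, 19.8 and 8.87 FPKM in EcSQ, against 0.18, 0.15 and 0.28 FPKM in EcCK. Its lowest EcSQ library was far above the highest control, but the gene passed the filter on FPKM through EcSQ alone, as did *SI65_02274*, and a difference in these 2 genes was fixed by that. The log2 fold change was 6.57 ± 0.91 (edgeR adjusted p = 0.0206), and 6.92 without EcSQ replicate 3 (edgeR adjusted p = 0.000583). *SI65_08277* had 149, 251 and 688 FPKM in EcSQ, against 49.9, 58.1 and 50.1 FPKM in EcCK. All EcSQ libraries were above the controls, with replicate 3 near the EcRS level. The log2 fold change was 2.78 ± 0.63 (edgeR adjusted p = 0.0474), and 1.93 without EcSQ replicate 3 (edgeR adjusted p = 0.00968). The call was lost with TMM (edgeR adjusted p = 0.0563) and with limma on log2(FPKM + 0.1) (limma adjusted p = 0.0501). *SI65_01378* had 8.45, 3.71 and 1.66 FPKM in EcSQ, against 90.8, 67.2 and 75.7 FPKM in EcCK. These groups were likewise apart, with log2 fold changes of -4.08 ± 0.72 (edgeR adjusted p = 0.0246), of -3.68 without EcSQ replicate 3 (edgeR adjusted p = 0.00256), and of -4.85 without EcSQ replicate 1 (edgeR adjusted p = 0.0309).

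The 5 further genes that passed once EcSQ replicate 3 was left out fell into 2 kinds. *SI65_07365*, the arabinosidase gene, had 15.8, 12.5 and 3.00 FPKM in EcSQ, against 66.7, 66.6 and 69.0 FPKM in EcCK, and *SI65_02293* had 47.7, 17.9 and 1.71 FPKM in EcSQ, against 199, 123 and 111.3 FPKM in EcCK. In these 2 genes all EcSQ libraries were below the controls, and leaving out replicate 3 narrowed the spread, with log2 fold changes of -2.25 and -2.14 (edgeR adjusted p = 0.00662 and 0.022). *SI65_02274*, with the beta-galactosidase EC number and amidine hydrolase terms, had 40.2, 11.3 and 0.94 FPKM in EcSQ, against 1.1, 0.49 and 0.34 FPKM in EcCK. *SI65_06114* had 44.4, 37.2 and 1.2 FPKM in EcSQ, against 12.4, 20.3 and 14.4 FPKM in EcCK, and *SI65_08633* had 14.6, 14.9 and 4.29 FPKM in EcSQ, against 1.3, 2.24 and 5.63 FPKM in EcCK. In these 3 genes EcSQ replicates 1 and 2 were above every control and replicate 3 was not. Their log2 fold changes without it were 5.31, 1.38 and 2.27 (edgeR adjusted p = 0.00256, 0.0398 and 0.031), the first in a gene that passed the filter through EcSQ alone.

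The median log2 fold change of EcSQ over EcCK was -0.28 over the 34 genes and -0.01 over all genes tested. Without EcSQ replicate 3 these medians were 0.14 and 0.27. The second wall gene, *SI65_07090*, had 124, 211 and 967 FPKM in EcSQ, against 109, 99 and 187 FPKM in EcCK. Its replicate 3 was the highest value of any of the 39 genes, replicate 1 lay within the controls, and the gene did not pass (log2 fold change 1.7, edgeR adjusted p = 0.241, and 0.35 without replicate 3, adjusted p = 0.613). *SI65_05527* was below the controls in all EcSQ libraries, with 24.5, 36.1 and 28.7 FPKM, against 52.8, 56.9 and 58.5 FPKM in EcCK, but did not pass (log2 fold change -0.91, edgeR adjusted p = 0.318, and -0.89 without replicate 3, adjusted p = 0.143).

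The third comparison set the 2 roots against each other. With all 6 libraries none of 34 genes passed in edgeR or in limma, and the smallest edgeR adjusted p was 0.0994. An unadjusted edgeR p below 0.05 was reached by 11 of the 34, beside 2670 of all 8784 genes tested. Among all 8784 genes tested 0.0342% were called in either direction. DESeq2 called 1 up and 7 down of the 34, beside 5.21% and 12.1% of all genes tested, and edgeR with all 9 libraries in one fit called 0 up and 6 down, beside 1.34% and 12.6%. Without EcSQ replicate 3, 3 of 35 genes were up-regulated and 22 were down-regulated in EcRS, beside 4.23% and 49.8% of all 8842 genes tested. The result for these genes thus rests on the use of that library.

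Without it, all 8 galactoside genes, both pectin genes and 8 of 9 tested genes of mannose- and fucose-bearing glycans were down-regulated in EcRS. Of the 12 tested remaining genes 4 were down-regulated, and of the 4 wall or surface genes none, beside 49.8% of all 8842 genes tested. Some genes that did not pass also had log2 fold changes below 0, such as *SI65_02166* with -0.23 and the wall gene *SI65_09471* with -0.60. Of the 8 galactoside genes, *SI65_02274*, *SI65_04088*, *SI65_05302* and *SI65_10149* passed the filter on FPKM through EcSQ alone, as did *SI65_06927* among the glycan genes, and a lower level in EcRS was fixed by that in these 5. The 4 steepest, 3 of them among these 5, were *SI65_10149*, *SI65_02274*, *SI65_05302* and *SI65_06547*. *SI65_10149* had 0.30, 0.18 and 0.20 FPKM in EcRS, against 11.8, 4.68 and 0.21 FPKM in EcSQ. *SI65_02274* had 0.78, 0.80 and 1.2 FPKM in EcRS, against 40.2, 11.3 and 0.94 FPKM in EcSQ. *SI65_05302* had 0.88, 0.77 and 1.06 FPKM in EcRS, against 27.4, 14.9 and 1.3 FPKM in EcSQ. In each of the 3 genes EcSQ replicates 1 and 2 were above every EcRS library, and replicate 3 lay within the EcRS range or, in *SI65_05302*, just above it. *SI65_06547* had 8.90, 4.43 and 9.85 FPKM in EcRS, against 203, 99.59 and 3.40 FPKM in EcSQ, where replicate 3 fell below EcRS. The log2 fold changes were -4.60, -4.24, -4.01 and -3.72 with all libraries (edgeR adjusted p = 0.0994, 0.0994, 0.0994 and 0.107). Without EcSQ replicate 3 they were -5.16, -4.80, -4.55 and -4.29 (edgeR adjusted p = 1.17e-05, 1.45e-05, 2.25e-06 and 4.56e-06).

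In *SI65_10113* and *SI65_10170*, as in *SI65_02609* and *SI65_03275*, EcSQ replicate 3 lay on the same side of EcRS as its group. The polygalacturonase gene *SI65_10113* had 4.85, 7.61 and 4.72 FPKM in EcRS, against 31.7, 19.8 and 8.87 FPKM in EcSQ. *SI65_10170*, the alpha-mannosidase gene, had 10.5, 8.67 and 10.4 FPKM in EcRS, against 46.2, 49.5 and 20 FPKM in EcSQ. Every EcRS library was below every EcSQ library in both, although neither passed with all 6 libraries (log2 fold change -1.81 and -1.96, edgeR adjusted p = 0.116 and 0.0994). Without EcSQ replicate 3 both passed, with log2 fold changes of -2.17 and -2.27 (edgeR adjusted p = 0.000367 and 8.15e-06). In the other direction, *SI65_08277*, *SI65_07090* and *SI65_08880* were higher in EcRS without EcSQ replicate 3, by 1.87 ± 0.29, 1.49 ± 0.31 and 1.49 ± 0.48 on the log2 scale (edgeR adjusted p = 0.000178, 0.00131 and 0.0165). With all libraries the 3 log2 fold changes were 1.01, 0.12 and 1.1, and for *SI65_07090* EcSQ replicate 3 exceeded every EcRS library.

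**Figure D4:**
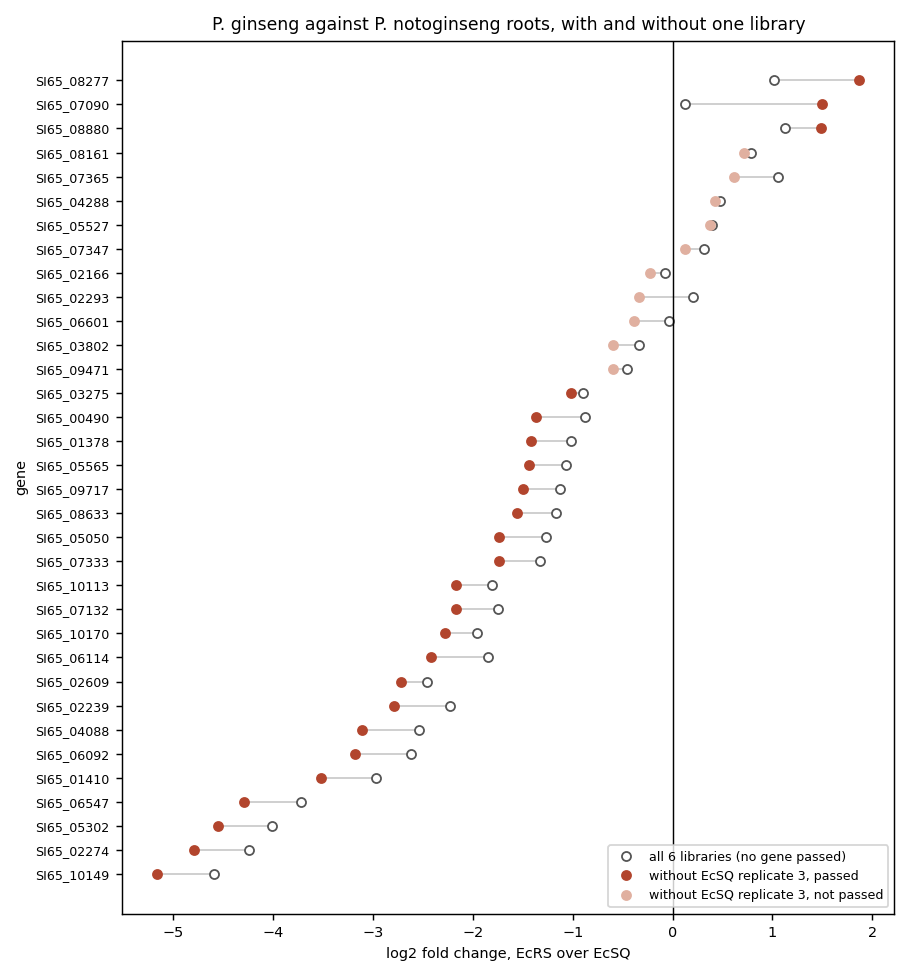
Each line joins the log2 fold change of EcRS over EcSQ for 1 gene with all 6 libraries (open) and without EcSQ replicate 3 (filled, dark where it passed), for the 34 genes tested both ways. *SI65_10149* lies lowest, at -4.60 and -5.16, and *SI65_07090* moves most on the positive side, with 0.12 and 1.49.

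How the libraries of a group spread was much the same in these genes as in the transcriptome. The highest library exceeded the lowest by a median of 1.42 times in EcRS (37 genes above 0 in all libraries), 4.70 times in EcSQ (37 genes) and 1.95 times in EcCK (38 genes), beside 1.44, 3.99 and 1.8 times over all genes. On log2(FPKM + 1), EcSQ replicates 1, 2 and 3 were closer to the EcRS mean than to the EcCK mean in 14, 20 and 32 of the 39 genes, beside 37%, 48.6% and 76.1% of all genes. EcSQ replicate 3 was the lowest of its group in 31 of the 39 genes, and EcCK replicate 3 was the highest of its group in 27. Over all genes these shares were 69.4% and 63.3%.

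The summed level of the 39 genes hid these opposite moves. It was 1678, 1631 and 1905 FPKM in EcRS, 1619, 1369 and 2014 FPKM in EcSQ, and 1087, 1130 and 1603 FPKM in EcCK. EcRS was above EcCK in every library (exact permutation test, two-sided p = 0.1, the smallest that 3 against 3 can give), and EcSQ overlapped both. As a share of the summed FPKM of all listed genes the 39 genes made up 0.172%, 0.191% and 0.214% in EcRS, against 0.127%, 0.147% and 0.213% in EcCK, and on this scale the groups overlapped. *SI65_08277* and *SI65_07090*, chosen after their values were seen, made up 67.5% to 71.1% of the sum in EcRS and 13.9% to 14.8% in EcCK. In EcSQ they made up 16.9%, 33.8% and 82.2%. The sum over the galactoside genes was 62.97 ± 9.29 FPKM in EcRS, 169 ± 114 FPKM in EcSQ and 150 ± 29.1 FPKM in EcCK (SD, n = 3).

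**Figure D5:**
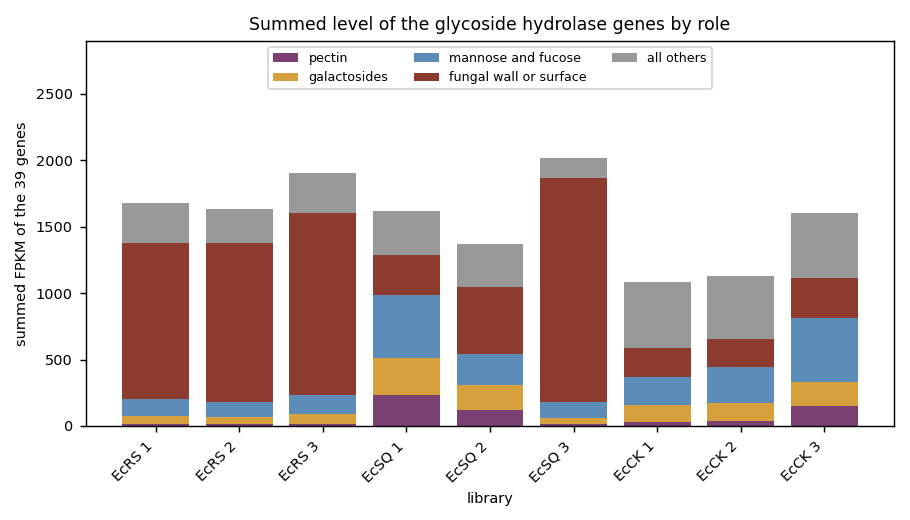
Stacked bars give the summed FPKM of the 39 genes in each library, divided by role. The wall or surface genes fill most of the bar in the 3 EcRS libraries and in EcSQ replicate 3, and the bars of EcCK stand between 1087 and 1603 FPKM.

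In 4 genes the levels were so low that they entered no test. *SI65_01326*, with the fucosidase EC number, had 0.13, 0.12 and 0 FPKM in EcRS, 0.32, 0.16 and 0 FPKM in EcSQ and 0 FPKM in all EcCK libraries, where 3 estimated counts would be 0.062 to 0.0671 FPKM. *SI65_02963*, with the EC number of beta-glucuronidase, stayed at or below 0.36 FPKM. The neighbouring genes *SI65_08382* and *SI65_08383* on contig 12, 48 bases apart on the same strand and with the same GO terms, showed an uneven pattern. *SI65_08382* had 0.80, 0.40 and 0.52 FPKM in EcRS, 0 FPKM in all EcSQ libraries and 0.59, 0.66 and 1.68 FPKM in EcCK. *SI65_08383* had 0 FPKM in all EcRS libraries, 0.55, 0.26 and 0.17 FPKM in EcSQ and 0.08, 0.19 and 0.41 FPKM in EcCK. Each gene was thus at 0 in the root group where its neighbour had counts. With no filter on FPKM *SI65_08383* passed as lower in EcRS and *SI65_08382* as lower in EcSQ, both against EcCK. At 3 estimated counts the level would be 0.0535 to 0.0543 FPKM for *SI65_08382* in EcSQ and 0.0444 to 0.0501 FPKM for *SI65_08383* in EcRS, and how the assembly divided reads between the 2 genes was not tested. *SI65_09471*, a short gene with a chitin binding term, had 1.54, 0.65 and 0.88 FPKM in EcRS, 1.87, 1.3 and 1.1 FPKM in EcSQ and 0.36, 0.38 and 0.70 FPKM in EcCK. Its EcSQ libraries were all above the controls at 8 to 16 estimated counts in EcCK.

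Related genes outside the 39 are given as counts for EcRS over EcCK, to be read against a background of 12.8% up and 47.6% down. Of the 84 glycoside hydrolase genes left out by pathway, 74 were tested, 12 (16.2%) were up-regulated and 39 (52.7%) were down-regulated. Of 18 other plant wall enzymes, such as pectate lyases and esterases, 14 were tested, with 4 up and 4 down. In galactose metabolism, 29 of 30 further genes were tested, with 6 up and 12 down, and in pentose and glucuronate interconversions 47 of 54, with 7 up and 21 down. In other glycan degradation and sphingolipid metabolism 21 of 23 were tested, with 3 up and 7 down. In EcSQ over EcCK the plant wall enzymes had 4 up and 0 down of 17 tested. The 84 genes had 3 up and 1 down of 75. In that comparison 3.59% of all 9160 genes tested were called in either direction. These counts include EcSQ replicate 3, without which 9.88% of all genes tested were called up and 6.69% down. Markers of spores and development were 301 genes outside the 39, picked by words such as sporulation or ascospore in their description or GO terms. Of these, 288 were tested for EcRS over EcCK, with 38 (13.2%) up and 102 (35.4%) down, beside 12.8% and 47.6% of all genes tested. For EcSQ over EcCK, with EcSQ replicate 3 included, 2 were up and 4 down of 291, beside 3.59% of all genes called in either direction. The summed level of the markers was 49865 to 55910 FPKM in EcRS, 44368 to 71839 FPKM in EcSQ and 30361 to 41359 FPKM in EcCK. In each group 1 or 2 of the markers were at 0 in all libraries. The part of growth stage in the changes of the 39 genes was not tested.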

How the data were processed

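The 9 RNA libraries of *A. cristatus* were grouped by their labels. Bowtie 0.12.2, HISAT2 2.0 and StringTie 1.3.0 are listed without a role in the submitters' processing notes. The study's methods name the NCBI assembly ASM4470619v1. Whether the contigs of the table are those of this assembly was not checked here, and coordinates are given as in the table. The authors deposited an estimated count and an FPKM for each gene and library. The counts come from coverage, so they exceed read numbers, and intervals from them cover counting error at best.

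After rounding, the quasi-likelihood test of edgeR 4.0.16 (R 4.3.3) was run on all genes whose mean reached 1 FPKM in the 6 libraries compared. Library size was the per-million factor of the FPKM, recovered from genes with at least 200 counts. Adjusted p-values are Benjamini-Hochberg over all genes tested. The SE of an edgeR log2 fold change was derived as its size divided by the square root of the F statistic of that test. Role groups follow EC and GO terms. Each gene may be named with its level, and full statistics go to the 6 largest called rises and falls, the 5 highest genes per group, called genes with a description, and up to 3 called genes per role. The genes and lists were chosen with earlier results of these data known.

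Same-numbered libraries of EcRS and EcCK deviated together (correlations 0.12, 0.20 and 0.29 across genes), which meets the limit of 0.1 used here for a pairing. A replicate block left the counts of that comparison at 4 up and 18 down. Alternatives used TMM, DESeq2 1.42.0, limma 3.58.1, other filters and the omission of each library. The edgeR procedure was run on simulated counts in which few genes changed, in both directions, with the library sizes taken as correct. That run does not bear on the shift between the scalings. Promoters and proteins were not analysed here. Figures were drawn with matplotlib 3.10.9.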

Additional observations from a re-analysis of the deposited data

How the results depend on the processing

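For EcRS over EcCK the number of down-regulated genes stayed within 1.5 times of 18 under every alternative run. The 4 up-regulated genes became 9 with TMM, 10 with DESeq2 and 10 with TMM and the replicate block, and the replicate block alone gave 4 and 18 and changed no call. The median of the tested genes less that of all genes was -0.68, against -0.068 with no filter on FPKM and -0.53 with a mean of at least 5 FPKM. The log2 fold changes of 6 genes that did not pass turned sign. *SI65_02166* gave 0.20 with TMM, 0.23 with DESeq2, 0.61 with TMM and the block and 0.54 without EcCK replicate 3, its range on leaving out 1 library being -1.26 to 0.54. *SI65_05050* gave 0.11, 0.14 and 0.16, *SI65_05527* 0.30, 0.32 and 0.29, and *SI65_06601* 0.34, 0.37 and 0.35 with TMM, DESeq2 and TMM with the block. *SI65_00490* passed as up-regulated with DESeq2 and with TMM and the block, and gave -0.07 without EcRS replicate 3, -0.27 without EcCK replicate 1 and -0.07 without EcCK replicate 2 (range -0.27 to 0.71), and *SI65_09717* gave -0.22 without EcCK replicate 1 (range -0.22 to 0.95). Among called genes the direction held under every alternative run.

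For EcSQ over EcCK, 2 up and 1 down became 5 and 3 with DESeq2, 2 and 3 with TMM and with TMM and the block (there without *SI65_08277* and with *SI65_02274*), 2 and 2 with limma on log2(FPKM + 1) and with no filter, 3 and 2 with all 9 libraries in one fit, and 1 and 1 with limma on log2(FPKM + 0.1). A replicate block gave 0 up and 0 down, and same-numbered libraries did not deviate together (-0.05, -0.04 and -0.11). Leaving out 1 library gave 0 to 5 up and 0 to 3 down, and the difference of medians, -0.27, ran from -0.41 (without EcCK replicate 2) to -0.13 (without EcSQ replicate 3). *SI65_06114* gave -0.068 and -0.26 with limma at pseudocounts of 1 and 0.1, and -0.016 with TMM and the block. For EcRS over EcSQ, 0 and 0 became 1 up and 7 down with DESeq2 and 0 up and 6 down with all 9 libraries. Leaving out 1 library gave 0 to 3 up and 0 to 22 down, with every call from the fit without EcSQ replicate 3. *SI65_07090* gave -0.07 without EcRS replicate 3, -0.32 without EcSQ replicate 1 and -0.21 without EcSQ replicate 2 (range -0.32 to 1.49). The replicate block gave 0 and 0 here, with correlations of 0.21, -0.17 and -0.11. The cause of these changes was not tested. Genes with a mean below 1 FPKM were tested with no filter alone, on few counts.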
